A study of Mus musculus with 38 samples.

Results

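Tbr1, Fezf2, Bcl11b, Cux1, Cux2, Emx1, Neurod6, and Rorb encode transcription factors of cortical projection neurons, and were taken from the count table by their gene symbols. They are 8 of the 54165 genes in the table, and each symbol matched 1 gene. RNA-seq of bulk tissue was done in adult FVB/NJ mice, WT or Ube3a2X, of both sexes. Ube3a2X mice are homozygous for a Ube3a transgene and thus carry 2 extra copies of the gene, and their WT littermates served as controls. The prefrontal cortex (PFC) was sampled by micropunches of coronal sections, pooled for each brain, in 5 mice of each sex and genotype, and the hypothalamus (Hypo) was excised in 4 WT and 5 Ube3a2X mice of each sex. This gave 20 PFC and 18 Hypo libraries from 25 mice, of which 13 gave both tissues. In the text a library is named by its tissue, genotype, sex, and mouse number.

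Projection neurons of the cortex are glutamatergic cells that send long axons, and their identity is set layer by layer by transcription factors. Emx1 marks the dorsal telencephalon from which they arise, and Neurod6 is a bHLH factor of postmitotic cortical glutamatergic neurons. Tbr1 specifies corticothalamic neurons of layer 6, Fezf2 and its target Bcl11b (Ctip2) specify subcerebral neurons of layer 5, Cux1 and Cux2 mark the callosal neurons of the upper layers, and Rorb marks layer 4. Deep-layer and upper-layer programs repress each other in the developing cortex. Several of the genes also act outside the cortex, Bcl11b for example in striatal neurons and Rorb in the retina and thalamus. The hypothalamus arises from another part of the forebrain and has few neurons of this class.

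On GRCm38, Tbr1 lies on chromosome 2 (61802930 to 61814114, + strand), Fezf2 on chromosome 14 (12342094 to 12348189, − strand), and Bcl11b on chromosome 12 (107910403 to 108003602, − strand). Chromosome 5 holds both Cux1 (136248135 to 136567490, − strand) and Cux2 (121856366 to 122050102, − strand). Chromosome 6 holds both Emx1 (85187438 to 85204462, + strand) and Neurod6 (55677822 to 55681263, − strand), and Rorb lies on chromosome 19 (18930605 to 19111196, − strand). Annotated noncoding genes overlap Cux1 (A430110C17Rik, Gm16599, and Gm38082) and Cux2 (Gm15637 and Gm3970), and their median levels were at most 0.122 CPM (counts per mega reads of the library). The other 6 genes overlap no annotated gene. In the longest annotated transcript of Emx1, 66.8% of the bases are G or C, against 41.6% in that of Rorb, 41.9% in that of Neurod6, and 49.95% to 55.9% in those of the other 5.

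In the tissue contrast that follows, Neurod6 is nearly restricted to the PFC and Rorb differs little, and the 250 bases before their annotated starts are shown for this reason. All 8 genes matched RefSeq promoters on GRCm38.p6, with 10 windows among 32851, and of these 1 window each of Neurod6 and Rorb is shown, since the windows of the other 6 genes run into annotated exons. Rorb has another window (chr19:19001118-19001367, − strand), with a GC content of 39.2%, no exonic base, and none of the motifs searched, which is not printed. Each sequence is read 5′ to 3′ on the strand of the gene, and capitals mark a GC box (GGGCGG) or a CCAAT box on either strand, none of which overlap here. The first sequence is chr6:55681264-55681513 and the second is chr19:19111197-19111446, both on the − strand.
Neurod6: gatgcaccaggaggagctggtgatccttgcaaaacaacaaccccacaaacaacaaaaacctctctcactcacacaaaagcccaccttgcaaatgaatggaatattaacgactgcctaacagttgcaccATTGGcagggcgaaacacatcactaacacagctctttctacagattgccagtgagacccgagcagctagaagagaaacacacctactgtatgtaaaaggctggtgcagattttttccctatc
Rorb: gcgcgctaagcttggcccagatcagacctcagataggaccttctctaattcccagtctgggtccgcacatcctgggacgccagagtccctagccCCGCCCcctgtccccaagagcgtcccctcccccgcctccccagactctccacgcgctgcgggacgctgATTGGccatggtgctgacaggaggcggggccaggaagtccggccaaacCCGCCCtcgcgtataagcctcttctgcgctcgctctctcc
The Neurod6 window had a GC content of 46.0% and held 1 CCAAT box. The Rorb window shown had a GC content of 66.0%, against a median of 52.4% over all windows, and held 2 GC boxes and 1 CCAAT box. A GC box was present in 32.7% of all windows and a CCAAT box in 33.9%. Motifs searched on both strands and found in neither of these windows were the E-box of the Neurod type (CAGATG, in 14.4% of all windows), a core site of T-box factors such as Tbr1 (GGTGTGA, in 3.33%), a homeodomain core such as that of the Emx factors (TAATTA, in 4.84%), and a core site of nuclear receptors such as Rorb (AGGTCA, in 14.02%). A match is a string of letters and was not tested as a binding site.

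PFC libraries held 36.9 to 69.1 M counted reads (M for mega) and Hypo libraries 39.0 to 380.8 M. Ube3a checked the genotype labels, with 183 to 260 CPM in the 10 WT and 686 to 2169 CPM in the 10 Ube3a2X libraries of the PFC, and 103 to 355 against 745 to 1724 CPM in the Hypo. The tissue labels matched their markers, since all 12 hypothalamus markers were lower in the PFC (1.08 to 3.84 CPM in sum, against 581 to 2251 CPM), and all 8 markers of excitatory cortical neurons were higher in the PFC. Hypo WT female 471 had the fewest reads of the Hypo and the highest sum of hypothalamus markers, Hypo Ube3a2X female 420 had the most reads, and PFC Ube3a2X female 462 had olfactory markers at 60.01 CPM in sum against a PFC median of 10.96 CPM. RIN, the RNA integrity number, ranged from 6.7 to 8.9 in PFC libraries and from 6.8 to 9.3 in Hypo libraries. Reads on the expected strand made up 91.5% to 95.6% in 14 PFC libraries and 97.4% to 99.1% in the other 6, which were all Ube3a2X (2 females and 4 males). This split and genotype cannot be fully told apart.

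The first comparison was of the PFC with the Hypo, and 7 of the 8 genes were higher in the PFC at an adjusted p under 0.05 in the edgeR quasi-likelihood test with Benjamini-Hochberg adjustment. Among the 22282 genes tested, 31.0% were higher and 32.4% lower in the PFC. Emx1, Neurod6, and Tbr1 were nearly restricted to the PFC, Fezf2, Bcl11b, and Cux2 were lower but clearly counted in the Hypo, Rorb differed little, and Cux1 had no detectable difference. In bulk tissue, fewer cells of a type and less RNA per cell cannot be told apart.

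**Figure D1:**
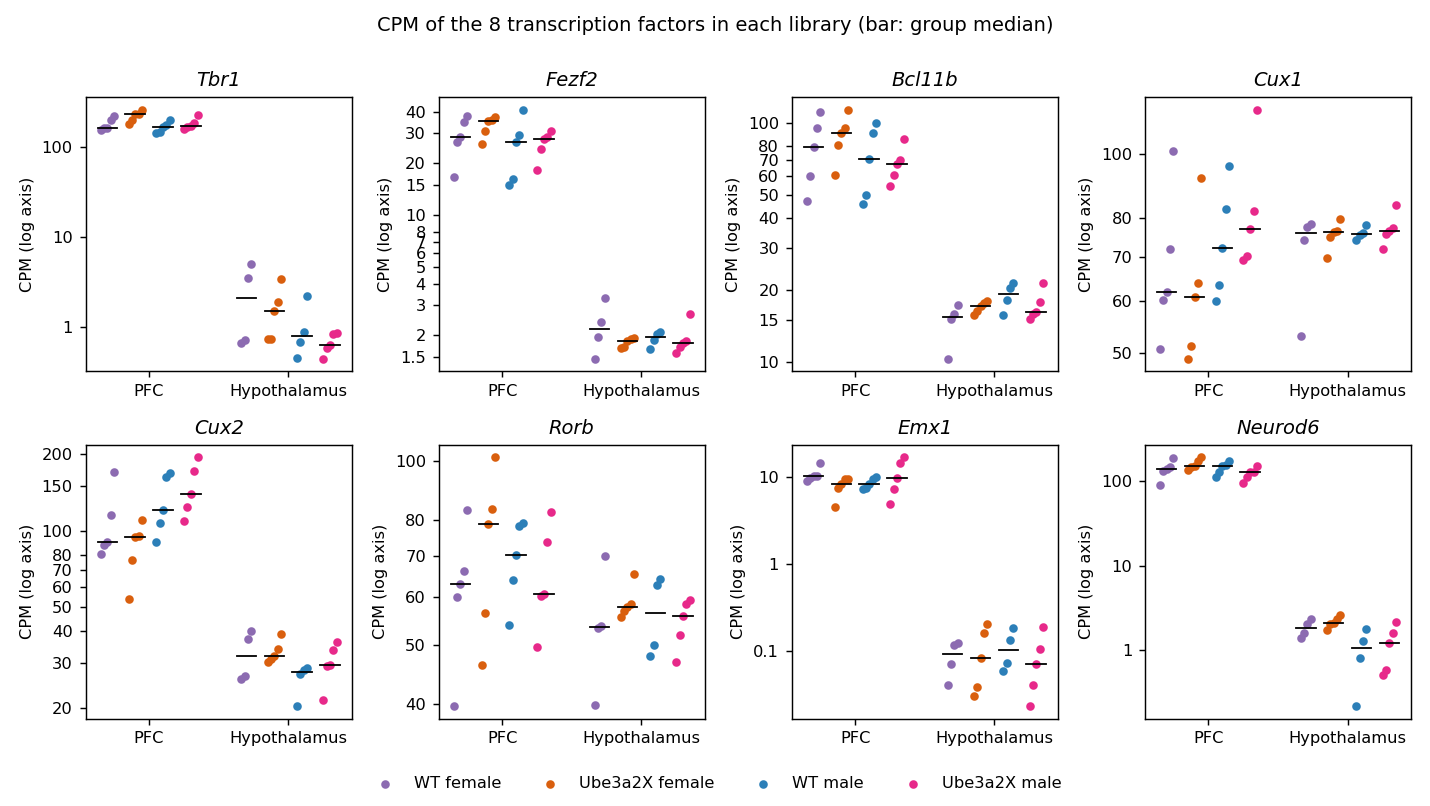
Level of each of the 8 genes in CPM (log axis) in every library of the PFC and Hypo. Points are libraries, colored by sex and genotype, and bars are group medians. The tissues do not overlap for 6 genes and overlap for Cux1 and Rorb. The share of all genes tested without such overlap is not given here.

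Tbr1, the layer 6 factor, had 141, 175, and 257 CPM as its lowest, median, and highest value in the 20 PFC libraries, and 0.444, 0.789, and 4.95 CPM in the 18 Hypo libraries. The tissues did not overlap, and the lowest PFC library was 28.6 times the highest Hypo library. The difference on the log2 scale was 7.05 (SE 0.306, edgeR adjusted p = 6.81e-21), a 132-fold higher level in the PFC. Its Hypo values spread widely. The 3 highest were 4.95 CPM in WT female 398, 3.45 CPM in WT female 471, and 3.35 CPM in Ube3a2X female 420, and Neurod6 in the same libraries was 1.62, 2.02, and 2.09 CPM, inside its range over the other Hypo libraries. With the mouse as a block in the 13 mice that gave both tissues, the Tbr1 difference was 8.60 (SE 0.388), or 389-fold.

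Fezf2, which directs the fate of layer 5 corticospinal neurons, was counted at 15, 28.3, and 41.0 CPM (lowest, median, and highest) in the PFC and at 1.46, 1.86, and 3.29 CPM in the Hypo. Every Hypo library held the transcript, at 5.17% to 11.6% of the PFC median, and none reached the lowest PFC library. Fezf2 was 17.4-fold higher in the PFC (log2 difference 4.12, SE 0.178, edgeR adjusted p = 6.04e-21).

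Bcl11b, which acts in layer 5 neurons and also in striatal neurons, had 45.6, 74.8, and 114 CPM in the PFC and 10.3, 16.7, and 21.4 CPM in the Hypo. The Hypo kept 13.7% to 28.6% of the PFC median, and the tissues did not overlap. This made Bcl11b 5.62-fold higher in the PFC (log2 difference 2.49, SE 0.156, edgeR adjusted p = 2.69e-16). Summed markers of the striatum, where Bcl11b is also expressed, were 98.5 to 172 CPM in the PFC and 177 to 311 CPM in the Hypo, and their part in the Bcl11b level was not tested. Of the 10 striatum markers, 5 were lower in the PFC, 2 were higher (Drd1 with a log2 difference of 1.13 and Ppp1r1b with 1.91), and 3 were not called.

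The 2 Cux genes, homeobox genes that share the upper layers, are given side by side, and the difference between them was not tested. Cux2 had 53.6, 110, and 195 CPM in the PFC and 20.3, 29.8, and 40.3 CPM in the Hypo, with no overlap. Its log2 difference was 1.71 (SE 0.156, edgeR adjusted p = 7.98e-12), or 3.27-fold. Cux1 had 49.1, 69.7, and 117 CPM in the PFC and 53.2, 76.1, and 83.9 CPM in the Hypo. All 18 Hypo libraries lay above the lowest PFC library, and 16 PFC libraries lay at or below the highest Hypo library. Its log2 difference was 0.00 (SE 0.131, 95% interval −0.26 to 0.27, edgeR adjusted p = 0.992), so that a Cux1 difference of up to 1.20-fold in either direction is inside the error. Within the Hypo, Cux1 varied little, and all libraries but WT female 471 were at 69.7 CPM or more.

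Rorb, the nuclear receptor of layer 4, had 39.7, 65.0, and 102 CPM in the PFC and 39.8, 56.2, and 69.9 CPM in the Hypo. Of the PFC libraries, 11 lay at or below the highest Hypo library. The log2 difference was 0.38 (SE 0.148, 95% interval 0.08 to 0.68, edgeR adjusted p = 0.0240), or 1.303-fold. This call was not stable. With the mouse as a block the difference was 0.38 with an adjusted p of 0.293 (edgeR), and without Hypo WT male 423 (RIN 6.8), PFC Ube3a2X female 468, or PFC Ube3a2X male 258 it was 0.27, 0.28, and 0.32, with adjusted p of 0.227, 0.0981, and 0.0618 in edgeR. RIN is a term of this fit and differed between the tissues, and without it the difference was 0.34.

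Emx1, the homeobox gene of the dorsal telencephalon, had 4.55, 9.52, and 17.0 CPM in the PFC and 0.0229, 0.0780, and 0.201 CPM in the Hypo. The Hypo values rest on 2 to 31 reads per library, with a median of 5 reads, and 4 Hypo libraries had 3 or fewer. Emx1 was 85.1-fold higher in the PFC (log2 difference 6.41, SE 0.283, edgeR adjusted p = 1.06e-20).

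Neurod6 had 88.4, 141, and 189 CPM in the PFC and 0.221, 1.68, and 2.65 CPM in the Hypo. Its lowest PFC library was 33.3 times its highest Hypo library, the widest gap of the 8 genes. The log2 difference was 6.52 (SE 0.233, edgeR adjusted p = 1.89e-23), or 91.9-fold, and it was 7.41 (171-fold) with the mouse as a block. The lowest Hypo values were 0.221 CPM in WT male 251 and 0.519 CPM in Ube3a2X male 404.

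**Figure D2:**
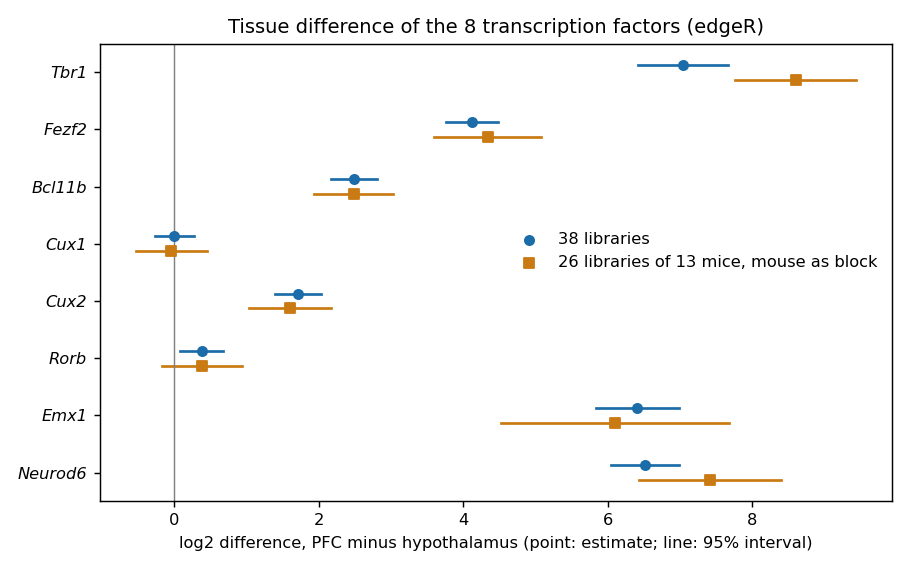
Difference of the PFC from the Hypo on the log2 scale (x axis) for the 8 genes (y axis), with lines for 95% intervals. Circles are the fit of all 38 libraries and squares the fit of 26 libraries from 13 mice with the mouse as a block. The circles run from 0.00 for Cux1 to 7.05 for Tbr1 and the squares from −0.0401 for Cux1 to 8.60 for Tbr1, and only the intervals of Cux1 and, with the block, of Rorb reach 0.

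Each of the 8 genes passed the low-count filter of edgeR in each tissue alone, so that none entered the test through its PFC level only. With the mouse as a block in edgeR, fitted on 26 libraries, 6973 genes were called in place of 14116, and of the 8 genes only Rorb lost its call. The Tbr1 estimate with this block and that of Neurod6 were more than 1.5 times the fold changes given by all libraries. With the mouse as a block in limma-voom, which used all libraries, Rorb kept its call.

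Levels of different genes can be compared per length of their exons, as CPM per kilobase of exon (RPKM). In the PFC the order of the median levels per length was Neurod6 (65.7 RPKM), Tbr1 (32.0), Cux2 (10.9), Fezf2 (9.29), Bcl11b (9.23), Rorb (5.87), Emx1 (4.36), and Cux1 (3.48). Neurod6 and Tbr1 stood above the others, and their ranges (41.1 to 87.8 and 25.8 to 46.9 RPKM) overlapped only with each other. From Cux2 downward, the ranges of neighboring genes overlapped. In the Hypo the order of the medians was Rorb (5.07 RPKM), Cux1 (3.80), Cux2 (2.96), Bcl11b (2.06), Neurod6 (0.780), Fezf2 (0.611), Tbr1 (0.144), and Emx1 (0.0357). Neighbors in the Hypo order overlapped, except that every library of Bcl11b (1.27 RPKM or more) was above every library of Neurod6 (1.23 RPKM or less). Cux1, the lowest of the 8 per length in the PFC, was thus the second highest in the Hypo, while no difference of its own level was detectable.

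Other transcription factors of cortical projection neurons, a list of 30 genes, were higher in the PFC in 25 cases and lower in 2, with a median log2 difference of 2.19 against −0.02 over all genes tested. The largest difference in the list was that of Neurod2 (6.45), a bHLH factor related to Neurod6. Markers of the layers were less uniform. Of 10 upper-layer markers, 6 were higher and 2 lower in the PFC (median 1.48), with Lamp5 (4.51) and Lhx2 (3.45) among those that differed most. Of 10 layer 5 markers, 6 were higher and 3 lower (median 0.64), and Qrfpr (−4.00), Crym (3.97), and Chrna6 (−3.87) differed most. Of 10 layer 6 markers in the table, 2 were higher and 5 lower (median −0.57), led by Nxph4 (−5.34), Cplx3 (2.52), and Ntsr1 (−2.15), a corticothalamic marker. Of 4 layer 4 markers other than Rorb, 1 was higher and 3 lower, and Scnn1a (−2.37), Rspo1 (−1.53), and Whrn (−1.099) differed most. The Tbr1 estimate (7.05) was above those of all these layer 5 and layer 6 markers. Fezf2 (4.12, SE 0.178) was near Crym (3.97, SE 0.257), and differences between genes were not tested.

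The second question was how the layers were balanced among the PFC libraries. Layer balance was the mean log2-CPM of Cux1 and Cux2 minus that of Tbr1, Fezf2, and Bcl11b in each library. It ran from −0.93 in Ube3a2X female 272 to 1.42 in WT female 259, a span of 2.34 on the log2 scale, or 5.07-fold. Between these 2 libraries, Cux2 went from 53.6 to 171 CPM (3.18-fold) and Cux1 from 49.1 to 101 CPM (2.06-fold). In the other direction, Bcl11b went from 114 to 47.1 CPM, Fezf2 from 35.4 to 16.6 CPM, and Tbr1 from 230 to 152 CPM. Tbr1 had the smallest change of these 5 genes. Between the same 2 libraries, Neurod6, which is not part of the balance, went with the deep-layer genes, from 169 to 88.4 CPM. Rorb and Emx1 went with the upper-layer genes there, from 46.4 to 83.2 CPM and from 9.53 to 14.4 CPM. Over all PFC libraries, Emx1 had r of −0.33 with Cux1 and 0.15 with Cux2, and Rorb had r of 0.52 with Cux1 and 0.25 with Cux2.

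Spread within groups was wide. The balance was −0.48 to 1.42 (median 0.03) in the 5 WT females, −0.93 to 0.33 (median −0.17) in the 5 Ube3a2X females, −0.34 to 1.41 (median 0.34) in the 5 WT males, and 0.05 to 1.09 (median 0.92) in the 5 Ube3a2X males. All 4 groups overlapped, and littermate controls of a single sex spanned 3.72-fold in females and 3.36-fold in males. It was −0.93 to 1.42 in the 14 libraries with the lower share of correct-strand reads and −0.04 to 0.93 in the other 6. Leaving out Bcl11b, using Cux2 alone, or adding Rorb to the upper-layer genes gave spans of 2.20, 2.68, and 2.17.

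**Figure D3:**
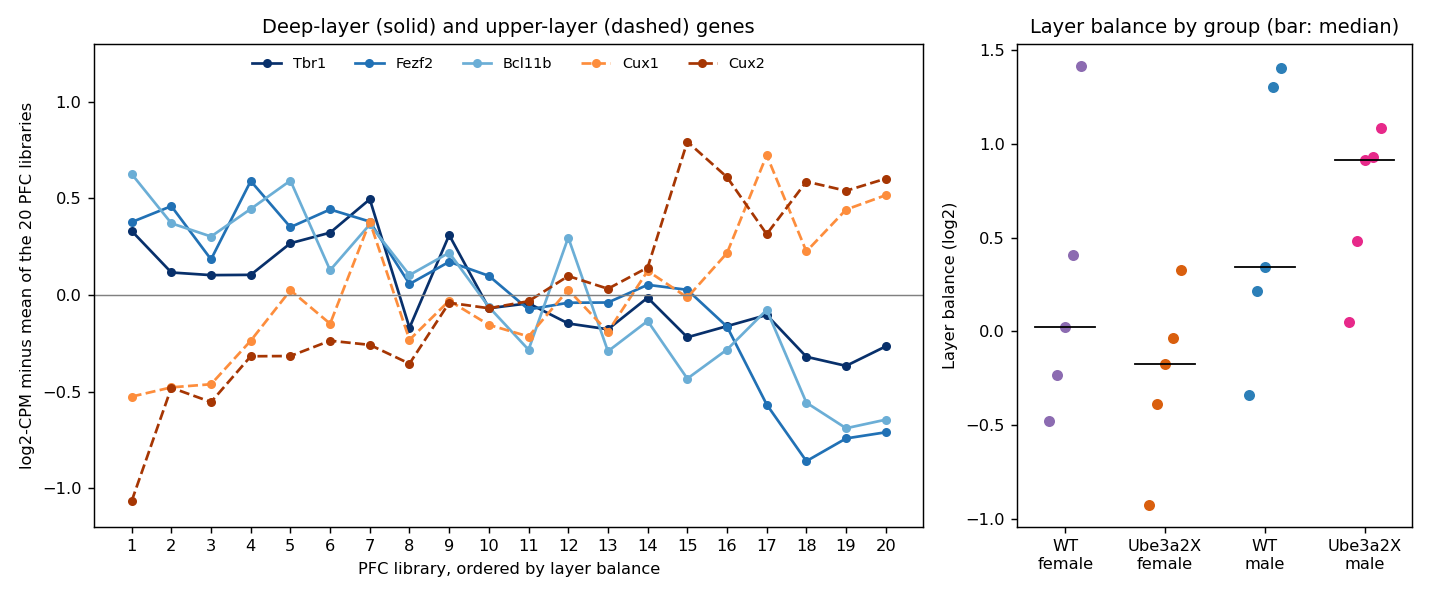
Left, log2-CPM of 3 deep-layer genes (solid) and 2 upper-layer genes (dashed), each minus its mean over the PFC, in the 20 PFC libraries ordered by layer balance. Right, layer balance (log2) of each library by group, with bars for medians. The order is set by the same 5 genes, so that the crossing of solid and dashed lines follows from it. The 4 groups overlap between 0.05 and 0.33.

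Over the 20 PFC libraries, 1 per mouse, 13 of the 28 pairs of genes correlated at an adjusted p under 0.05 (two-sided permutation test, Benjamini-Hochberg over the 28 pairs), 7 of them positively and 6 negatively. The share among pairs of all genes is not given here, so the count of 13 has no background to be set against. The 3 deep-layer genes rose and fell together. Fezf2 and Bcl11b had r = 0.83 and rho = 0.85 (permutation p = 1e-05, the smallest the permutations can give, and 2e-05; adjusted p = 0.00014 for both), Tbr1 and Bcl11b had r = 0.81 and rho = 0.85 (permutation p = 3e-05 and 2e-05; adjusted p = 0.00028 and 0.00014), and Tbr1 and Fezf2 had r = 0.79 and rho = 0.84 (permutation p = 8e-05 and 1e-05; adjusted p = 0.00056 and 0.00014). Without the 2 libraries farthest from the median of the first gene, r was 0.76, 0.80, and 0.79. Cux1 and Cux2, the upper-layer pair, had r = 0.72 and rho = 0.76 (permutation p = 0.00038 and 0.00015; adjusted p = 0.00152 and 0.0007), and r = 0.72 without 2 libraries.

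Across the layers the signs were opposite. Bcl11b and Cux2 had r = −0.86 and rho = −0.84 (permutation p = 1e-05 for both; adjusted p = 0.00014 for both), and r = −0.83 without the 2 farthest libraries. Cux2 also correlated negatively with Fezf2 (r = −0.75, rho = −0.81, permutation p = 0.00011 and 5e-05, adjusted p = 0.000616 and 0.00028) and Tbr1 (r = −0.73, rho = −0.72, permutation p = 0.00031 and 0.00063, adjusted p = 0.00145 and 0.00252), and without 2 libraries r was −0.70 and −0.71. Cux1 did so with Fezf2 (r = −0.69, rho = −0.65, permutation p = 0.00066 and 0.0023, adjusted p = 0.00231 and 0.00716, r = −0.67 without 2 libraries) and less with Bcl11b (r = −0.54, rho = −0.55, permutation p = 0.0152 and 0.0142, adjusted p = 0.0355 and 0.0330, r = −0.37 without 2 libraries). Tbr1 and Cux1 did not pass (r = −0.35, rho = −0.42, permutation p = 0.129 and 0.0675, adjusted p = 0.203 and 0.126).

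Neurod6, a gene of glutamatergic neurons of all layers, correlated with Bcl11b (r = 0.62, rho = 0.67, permutation p = 0.00319 and 0.00158, adjusted p = 0.00992 and 0.00553, r = 0.47 without 2 libraries) and Fezf2 (r = 0.57, rho = 0.57, permutation p = 0.00885 and 0.00997, adjusted p = 0.0248 and 0.0254, r = 0.57 without 2 libraries), and negatively with Cux2 (r = −0.54, rho = −0.57, permutation p = 0.0138 and 0.00966, adjusted p = 0.0350 and 0.0254, r = −0.61 without 2 libraries). On residuals after the 4 groups and RIN, all 3 were lost (r = 0.48, 0.46, and −0.26, adjusted p = 0.0740, 0.0878, and 0.344 in the permutation test). They were also lost without WT female 259 (r = 0.54, 0.46, and −0.47, adjusted p = 0.0504, 0.0867, and 0.0867 in the permutation test). Without WT male 266 the calls with Fezf2 and Cux2 were lost, and that with Cux2 was also lost without Ube3a2X female 272 or Ube3a2X male 267. Rorb correlated with Cux1 only (r = 0.52, rho = 0.53, permutation p = 0.0187 and 0.0177, adjusted p = 0.0403 and 0.0380, r = 0.42 without 2 libraries), and Emx1 with none of the other 7 genes.

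These relations were recomputed in the 2 classes of correct-strand share. In the 14 libraries with the lower share, 18 pairs were called, and the 13 pairs kept their sign. In the other 6 libraries 0 pairs passed and 5 pairs had an unadjusted exact permutation p under 0.05. A design of 6 libraries can hardly pass the adjustment over 28 pairs, since r = 0.99 for Tbr1 and Bcl11b had an exact permutation p of 0.00278 and an adjusted p of 0.0778. In these 6 the pairs of deep-layer genes still had r of 0.86 to 0.99 and Cux2 had r of −0.64 to −0.84 with them, but Cux1 had r = 0.48 with Fezf2, 0.49 with Bcl11b, and −0.10 with Cux2. The r of Neurod6 was 0.09 with Bcl11b, 0.43 with Fezf2, and −0.21 with Cux2. The difference between the classes was not tested. Without WT female 259, which has the highest layer balance, 8 pairs were called in place of 13, and the 5 lost were the 3 pairs of Neurod6, Bcl11b with Cux1, and Cux1 with Rorb. The pairs of Bcl11b and Cux1 and of Cux1 and Rorb lost their call without any 1 of 6 and of 8 libraries, WT female 259 among them in both cases, with r of −0.46 and 0.48 and adjusted p of 0.0867 for both (permutation test). On residuals after the 4 groups and RIN, 10 pairs were called. The pair of Bcl11b and Cux1 was lost there with those of Neurod6 (r = −0.48, adjusted p = 0.0740, permutation test), and that of Cux1 and Emx1 was gained (r = −0.57, adjusted p = 0.0235, permutation test). With the trend of GC content and exon length taken out, 11 pairs were called, without those of Cux1 and Rorb (r = 0.51, adjusted p = 0.0527, permutation test) and of Cux2 and Neurod6 (r = −0.45, adjusted p = 0.0806, permutation test).

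Other genes of the layers moved with the balance in the 20 libraries. Their correlations are descriptions across libraries that share depth and tissue sampling. RIN had r = −0.40 and AT dropout r = −0.10 with the balance. The summed level of the 10 upper-layer markers had r = 0.88 with it, and the sums of the layer 5 and layer 6 markers had r = −0.76 and −0.83. The sum of the layer 4 markers had r = 0.32, and that of the 30 other cortical factors r = 0.00. With Fezf2, the correlation was positive for 8 of 8 layer 5 markers (median r = 0.59), 7 of 8 layer 6 markers (0.69), and 1 of 10 upper-layer markers (−0.60), against 52.7% of all 10899 genes (0.02). With Cux2 it was positive for 0 of 8, 0 of 8, and 9 of 10 (medians −0.48, −0.76, and 0.85), against 59.0% of all genes (0.10). Oligodendrocyte markers had the signs of the deep-layer markers, positive with Fezf2 in 8 of 8 (median 0.58) and with Cux2 in 0 of 8 (−0.66). Layer 6 markers summed to 362 CPM in Ube3a2X female 272 and 91.7 CPM in WT female 259. Other cell types also differed along the balance. Oligodendrocyte markers, 1001 to 3568 CPM in sum, had r = −0.64 with it, and those of astrocytes (5185 to 11317 CPM), microglia, and endothelium and mural cells had r = 0.58, 0.73, and 0.65. With the sums of the oligodendrocyte and astrocyte markers taken out of each gene by regression, 15 pairs were called, but not the same ones. The 3 pairs of Neurod6 kept their call, with r = 0.90 for Bcl11b, 0.66 for Fezf2, and −0.70 for Cux2 (adjusted p = 0.00028, 0.0049, and 0.00322, permutation test). Cux2 lost its pair with Fezf2 (r = −0.47, adjusted p = 0.0632, permutation test), and Cux1 those with Bcl11b (r = −0.49, adjusted p = 0.0522) and Rorb (r = 0.36, adjusted p = 0.174). Gained were the pair of Tbr1 and Neurod6 (r = 0.57) and 4 pairs of Emx1, with Cux2 (r = 0.77), Bcl11b (r = −0.67), Neurod6 (r = −0.65), and Tbr1 (r = −0.53). Of the 4, only the pair with Cux2 also passed by rho (0.63, adjusted p = 0.0346, permutation test, r = 0.60 without 2 libraries). The other 3 had adjusted p of 0.0595, 0.0792, and 0.101 for rho (permutation test) and r of −0.39, −0.36, and −0.21 without 2 libraries. Pairs that kept their call by r but did not pass by rho were Tbr1 with Bcl11b, Fezf2 with Neurod6, Cux1 with Cux2, and Fezf2 with Cux1. Their adjusted p for rho was 0.0513, 0.0579, 0.0878, and 0.173 (permutation test). Markers of the thalamus (111 to 209 CPM in sum), excitatory neurons, and oligodendrocyte precursors had r = 0.57, 0.53, and 0.52, and those of the striatum had r = 0.01. The part of these cell types in the balance was not tested.

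For each of the 8 genes, the 3 most similar genes by Pearson r of log2-CPM over the 20 PFC libraries were taken from the other 10899 genes tested there. For the deep-layer genes they included Rap1gds1 and Pip4k2a for Tbr1 (r = 0.95 and 0.91), and were Kcna6, Adgra1, and Sulf2 for Fezf2 (0.92, 0.91, and 0.91), and Spon1, Rnf152, and Foxp2 for Bcl11b (0.96, 0.95, and 0.94). Foxp2, a forkhead factor of layer 6, is in the list of layer 6 markers. For the upper-layer genes they were Sall1, P3h2, and Cdc14a for Cux1 (r = 0.90, 0.90, and 0.89) and Otof, Kit, and Rims3 for Cux2 (0.94, 0.92, and 0.91), and Otof is in the list of upper-layer markers. Shf, Bmyc, and Sf3b5 were closest to Emx1 (r = 0.96 for all), Cdh11, Gm19410, and Cdkl2 to Neurod6 (0.90, 0.87, and 0.85), and Thsd7a, Phactr2, and Lcorl to Rorb (0.82, 0.80, and 0.76).

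Emx1 followed a quality measure of the libraries. AT dropout is a Picard score that rises as reads from AT-rich sequence go missing, and it was 10.6 to 22.1 in the PFC. Emx1, the most GC-rich of the 8 genes, correlated with it (r = 0.82, rho = 0.72, permutation p = 2e-05 and 0.00053, adjusted p = 0.00096 for r over 48 relations of 8 genes and 6 measures, and r = 0.69 without the 2 farthest libraries). It was the only one of the 48 relations with an adjusted p under 0.05. Emx1 was 4.55 CPM in Ube3a2X female 468, which had the lowest AT dropout, and 17.0 CPM in Ube3a2X male 238, which had the highest. The relation had r = 0.58 in the 14 libraries with the lower correct-strand share and r = 0.97 in the other 6. Of the other genes, none passed. With RIN, the genes on either side of the layer balance had opposite signs, with r = 0.46 for Bcl11b (rho = 0.42, permutation p = 0.0441 and 0.0672, r = 0.48 without 2 libraries) and r = −0.45 for Cux2 (rho = −0.49, permutation p = 0.0484 and 0.0297, r = −0.34 without 2 libraries), and an adjusted p of 0.490 for r in both. With AT dropout, Rorb had r = −0.47 (rho = −0.43, permutation p = 0.0347 and 0.0573, adjusted p = 0.490 for r, r = −0.38 without 2 libraries), Cux1 had r = −0.38 (rho = −0.27, permutation p = 0.102 and 0.252, adjusted p = 0.490 for r, r = −0.31 without 2 libraries), and Neurod6 had r = −0.30 (rho = −0.15, permutation p = 0.202 and 0.527, adjusted p = 0.648 for r), which turned to 0.15 without 2 libraries.

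**Figure D4:**
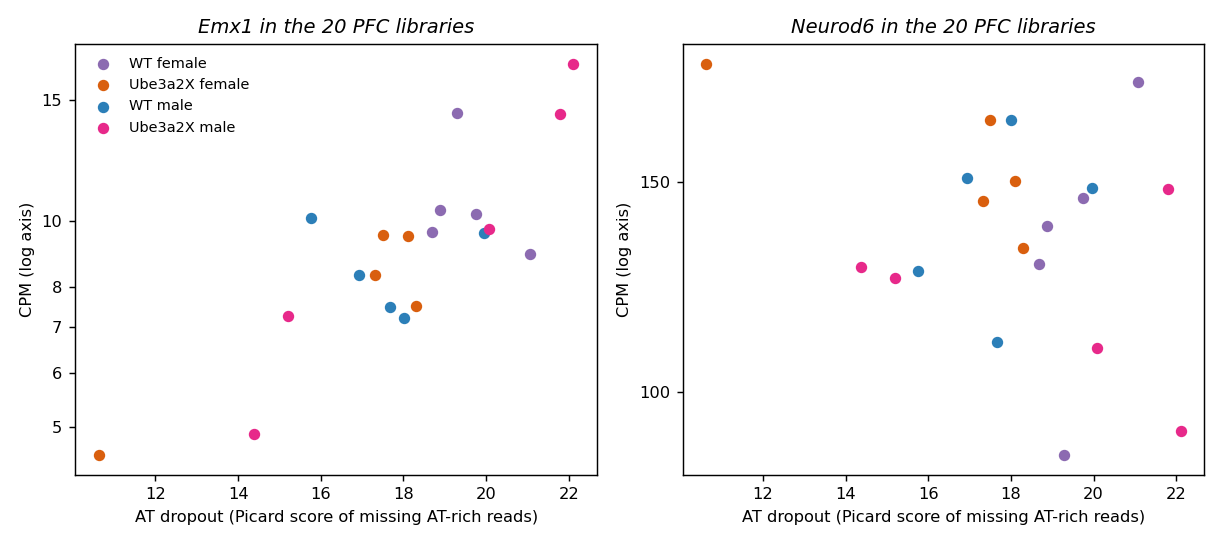
CPM (log axis) of Emx1 (left) and Neurod6 (right) against AT dropout (score) in the 20 PFC libraries, colored by sex and genotype. Emx1 runs from 4.55 CPM at the lowest to 17.0 CPM at the highest AT dropout, and Neurod6 has no such order.

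The third comparison was of Ube3a2X with WT mice in the PFC. None of the 8 genes was called in the edgeR fit with sex, RIN, and 2 surrogate variables, where 0.0183% of the 10900 genes tested were called at an adjusted p under 0.05. DESeq2 called 32 genes and also none of the 8. Both called genes were higher in Ube3a2X, Ube3a itself (log2 difference 2.33, SE 0.156, edgeR adjusted p = 1.09e-06) and 9330162G02Rik (0.85, SE 0.132, adjusted p = 0.0285), which is named because the count is small. At an unadjusted p under 0.05 there were 2 of the 8 genes, Tbr1 and Fezf2, against 7.90% of all genes tested.

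Tbr1 was 152, 161, 162, 198, and 220 CPM in WT females and 177, 196, 228, 230, and 257 CPM in Ube3a2X females. It was 141, 146, 165, 174, and 196 CPM in WT males and 157, 163, 170, 181, and 226 CPM in Ube3a2X males. The genotypes overlapped in both sexes. The log2 difference was 0.16 (SE 0.04998, 95% interval 0.06 to 0.27) with an adjusted p of 0.360 in edgeR. With a term for the class of correct-strand share it was 0.09 (adjusted p = 0.883), and within the 14 libraries of the lower class it was 0.25 (adjusted p = 0.363).

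Fezf2 was 16.6, 26.5, 28.4, 34.8, and 37.5 CPM in WT females and 25.9, 31.0, 35.4, 35.5, and 37.1 CPM in Ube3a2X females. It was 15, 16.3, 26.5, 29.2, and 41.0 CPM in WT males and 18.4, 24.3, 27.8, 28.3, and 30.7 CPM in Ube3a2X males. WT males held both the lowest and the highest value of all 20 libraries. The log2 difference was 0.24 (SE 0.102, 95% interval 0.02 to 0.45, edgeR adjusted p = 0.585), and it was 0.06 with the term for correct-strand share. The third deep-layer gene, Bcl11b, had a log2 difference of 0.08 (SE 0.0616, edgeR adjusted p = 0.784).

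The upper-layer genes had estimates below 0, with −0.16 for Cux2 (SE 0.0790, 95% interval −0.32 to 0.01, edgeR adjusted p = 0.657) and −0.12 for Cux1 (SE 0.0851, 95% interval −0.30 to 0.05). Emx1 had −0.10 (SE 0.107), and −0.43 within the 14 libraries of the lower correct-strand class (edgeR adjusted p = 0.354). Rorb had −0.03 (SE 0.136) and Neurod6 −0.02 (SE 0.0964). The bounds of the 8 intervals lay between −0.32 (1.25-fold lower, for Cux2) and 0.45 (1.37-fold higher, for Fezf2). These intervals hold for the fit with 2 surrogate variables estimated from the same libraries. Whether these variables take up part of the layer balance was not tested. Over 10 alternatives the estimates ran from −0.02 to 0.29 for Bcl11b and from −0.43 to −0.03 for Emx1. Over all genes tested the median absolute difference was 0.05. In the lists of other cortical factors and layer markers no gene was called. At an unadjusted p under 0.05 there were 5 of 30 other cortical factors (median difference 0.02), 4 of 8 layer 6 markers (median 0.26), 1 of 8 layer 5 markers (median −0.03), and none of 10 upper-layer markers (median −0.11), against 7.90% and a median of 0.01 over all genes tested. The 4 layer 6 markers, named because they are few, were Foxp2 (0.60), Rprm (0.52), Syt6 (0.35), and Tle4 (0.24), and Foxp2 and Tle4 are also in the list of other cortical factors. All 8 oligodendrocyte markers had estimates above 0 in the same comparison (median 0.18), 1 of them with an unadjusted p under 0.05 (Mog, 0.35), and their part in the layer 6 values was not tested.

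**Figure D5:**
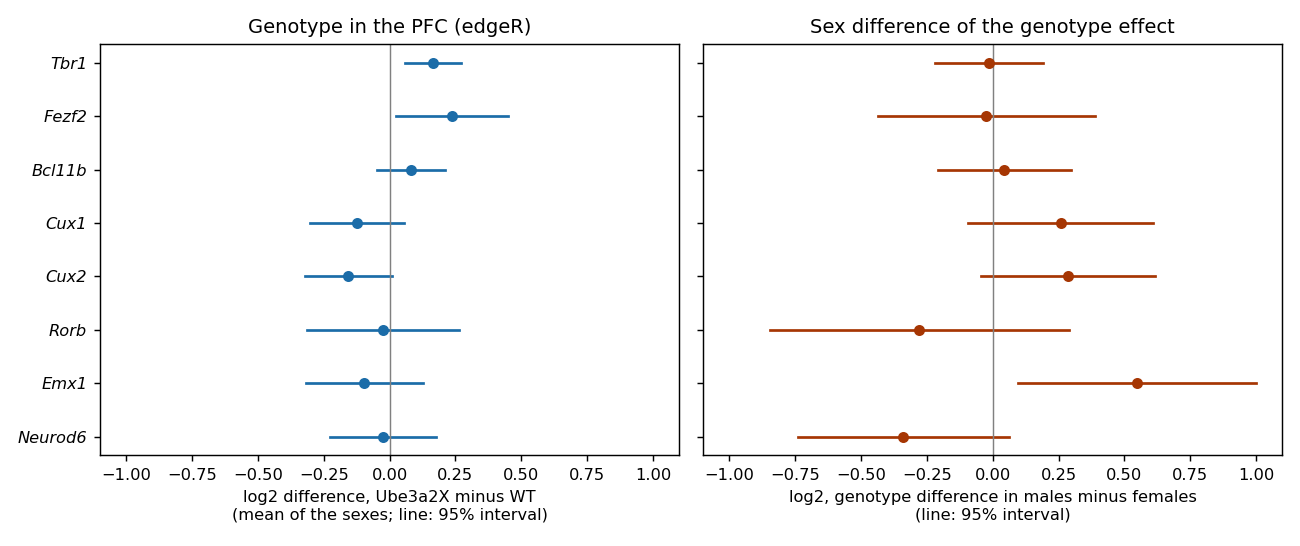
Difference of Ube3a2X from WT in the PFC, mean of the sexes (left), and the difference in males minus that in females (right), on the log2 scale for the 8 genes. Points are edgeR estimates and lines 95% intervals. The intervals of Tbr1 and Fezf2 on the left and of Emx1 on the right leave out 0, and no gene passed the adjusted test.

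The study asks whether the effect of Ube3a dosage depends on sex, and this was tested as the genotype difference in males minus that in females. None of the 8 genes passed, and 0% of the 10900 genes were called by edgeR, while 25.2% had an unadjusted p under 0.05 and DESeq2 called 804 genes, none of the 8 among them. Of the 9 alternatives, limma-voom among them, only DESeq2 called any gene. The paper, with limma-voom on more genes after its filters, reports many PFC genes at its FDR threshold for this interaction. It also reports the interaction by qRT-PCR for some of them in a separate cohort. The cause of this difference was not tested. Emx1 was the only one of the 8 with an unadjusted p under 0.05 (log2 difference of the effects 0.55, SE 0.216, edgeR adjusted p = 0.137). Emx1 was 8.96, 9.63, 10.2, 10.4, and 14.4 CPM in WT females and 4.55, 7.50, 8.33, 9.50, and 9.53 CPM in Ube3a2X females. It was 7.20, 7.48, 8.32, 9.59, and 10.1 CPM in WT males and 4.89, 7.26, 9.73, 14.3, and 17.0 CPM in Ube3a2X males. Ube3a2X males held the 2 libraries of highest AT dropout, and their Emx1 values spread the most. With each library corrected for its trend over GC content and exon length, the difference was 0.18 (edgeR adjusted p = 0.701), and with the first 2 principal components of the quality measures it was 0.17 (adjusted p = 0.937).

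For the other 7 genes the difference of the effects was 0.29 for Cux2 (SE 0.158, edgeR adjusted p = 0.254), 0.26 for Cux1 (SE 0.168), and 0.04 for Bcl11b (SE 0.121), and −0.01 for Tbr1 (SE 0.0984), −0.02 for Fezf2 (SE 0.197), −0.28 for Rorb (SE 0.269), and −0.34 for Neurod6 (SE 0.191, adjusted p = 0.265). Their 95% intervals all held 0. The sign turned in 3 of 9 alternatives for Bcl11b (down to −0.73) and in 1 of 9 for Cux2, and without each library it turned in 6 of 20 fits for Bcl11b, 10 of 20 for Fezf2, and 5 of 20 for Tbr1. Sizes also moved over the 9 alternatives, from −0.66 to −0.02 for Fezf2, −0.48 to −0.01 for Tbr1, and −0.08 to 0.73 for Cux2. Of the 30 other cortical transcription factors, 5 had an unadjusted p under 0.05, 4 of them with a positive difference, and the median was −0.04 against 0.00 over all genes tested. Of the layer markers, 3 of 10 upper-layer genes (Otof at 0.58, Lhx2 at 0.39, and Pou3f2 at −0.35, median of the list −0.09), 1 of 8 layer 5 genes (Tshz2 at 0.57, median −0.10), and 0 of 8 layer 6 genes (median 0.47) had an unadjusted p under 0.05, against 25.2% of all genes tested.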

How the data were processed

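RNA-seq libraries of 20 PFC and 18 Hypo samples were analyzed. The methods of the study give fewer WT mice of each sex for RNA-seq than the labels and the count table hold for the PFC, and no library was left out. The authors prepared stranded mRNA libraries, aligned the reads with STAR to mm10 (GRCm38), and counted them per gene with featureCounts on Gencode v24. The deposited count table holds reads per gene without normalization. The deposited quality table, made by the authors with Picard and a Bioanalyzer, gives RIN and AT dropout as a score, shares of bases and of correct-strand reads as a fraction, coverage evenness and end bias as a ratio, and aligned reads as a count. One row of that table names PFC WT male 266 as mouse 66 and was joined by its sample name. Coordinates, exon lengths, and GC content came from GENCODE vM21, in which 53905 of the 54165 genes were found. The 8 genes, the gene lists, and the tests were chosen with earlier results of these data known, so no list is independent support for a direction. The lists of layer and cell type markers, the classes of layers, and the motifs were written from general knowledge.

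From the counts, CPM were computed with TMM factors in edgeR 4.0.16 (R 4.3.3), and log2-CPM used a prior count of 2. The tissues were compared in all 38 libraries with 8 groups of tissue, sex, and genotype and RIN (filterByExpr, 22282 genes). Genotype and its sex difference were tested in the PFC after removal of genes that had under 100 reads in at least 2 libraries and of the 15% with the lowest variance (10900 genes), with RIN and 2 surrogate variables from sva 3.50.0. Both used glmQLFTest, and Benjamini-Hochberg adjustment over all genes tested. The tissue fit and the genotype contrast in the PFC were tested on simulated counts with known changes, and the other steps were not. Correlations used 1e+05 permutations, or all of them for 6 libraries. Mouse numbers pair the tissues of 13 animals, so the mouse was also fitted as a block. Deviations of the 2 tissues of a mouse from their group means correlated at −0.31 to 0.21, above 0.1 in 2 of the 13. Alternatives used limma 3.58.1, DESeq2 1.42.0, RLE factors, other filters and covariates, an offset for GC content and length, and leaving out each library. The classes of correct-strand share, split at 96%, the glial regression, the GC trend of the correlations, and the correlations without each library were added after seeing the data. Named genes are the 8, Ube3a, the 3 genes of each list of cortical factors and layer markers with the largest tissue difference, and for each of the 8 the 3 genes most correlated with it, and some genes that meet this rule are not reported here. Figures were drawn with matplotlib 3.10.9 in Python 3.11.15. Sampling of reads added little to the error, since squared differences between libraries of a group were 11.1 to 453 times those from sampling noise (72 pairs). The exception is Emx1 in the Hypo, with 2 to 31 reads.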

Additional observations from a re-analysis of the deposited data

Results flagged for a closer look

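Cux1 in Hypo WT female 471 was 53.2 CPM, while the other 3 libraries of its group were at 74.3 to 78.5 CPM. The gap to the nearest library was 0.858 of the range of the group, above Dixon's critical value for 4 samples. Among 64 groups (8 genes in 8 groups of libraries) this was 1 case, and chance gives about 1 in 20 groups. The same library also had the lowest Bcl11b (10.3 CPM) and Rorb (39.8 CPM) of the 18 Hypo libraries, but the highest Fezf2 (3.29 CPM). Only WT female 398 had more Tbr1 in the Hypo (4.95 against 3.45 CPM). The library had the fewest reads of the Hypo (39.0 M, M for mega), the highest sum of hypothalamus markers (2251 CPM), and the lowest sum of excitatory neuron markers (580 CPM), and their part in the Cux1 value was not tested. Without it the tissue difference of Cux1 was −0.0539 on the log2 scale.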

How the results depend on the processing

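In the tissue comparison, Tbr1, Fezf2, Bcl11b, Cux2, Emx1, and Neurod6 kept their direction and call under every alternative in which they were tested. A filter of 100 reads in all but 1 library of each tissue removed Tbr1, Emx1, and Neurod6, left 3 of the 8 genes called, and gave 8358 called genes in place of 14116. The replicate block (paired by mouse) in edgeR gave 6973 called genes and lost Rorb (0.38, adjusted p = 0.293), and it changed no other call of the 8. In limma-voom the block kept the Rorb call. Rorb was also lost under the stricter filter (0.33, adjusted p = 0.0501) and without a filter (0.31, adjusted p = 0.0977). Cux1, which was not called, turned to −0.0476 under the stricter filter, −0.0735 without a filter, and −0.0401 and −0.0398 with the replicate block in edgeR and limma-voom. Leaving out each library gave 12046 to 15098 called genes, 6 to 7 of the 8 genes called, and −0.13 to 0.0559 for Cux1. For genotype in the PFC, none of the 8 was called under any alternative run. The genes called were 32 with DESeq2, 4 with the GC and length offset, 1 without a filter, 1 with a term for correct-strand share, 1 in the 14 libraries of the lower class, and 1 to 15 without each library. Estimates that turned were Bcl11b (−0.0159 with quality components), Cux1 (0.0141), Neurod6 (0.12), and Rorb (0.0763) in the 14 libraries, Neurod6 without a filter (0.00479), and Neurod6 (0.0279) and Rorb (0.0544) with RIN only. Without each library Neurod6 was −0.0946 to 0.0554 and Rorb −0.14 to 0.0498. For the sex difference, DESeq2 called 804 genes, and the fits without each library called 0 to 1624 genes (1624 without WT female 93, 1043 without Ube3a2X female 462, and 1043 without Ube3a2X male 253), none of them among the 8. Estimates that turned were Bcl11b (−0.27 without a filter, −0.73 with quality components, and −0.32 with RIN only) and Cux2 (−0.0752 with the GC and length offset). Without each library Bcl11b was −0.13 to 0.21, Fezf2 −0.27 to 0.22, and Tbr1 −0.15 to 0.0898. The correlated pairs numbered 8 to 14 without each library, 10 on residuals after the 4 groups and RIN, 11 with the GC and length trend removed, 15 after the glial regression, 18 in the 14 libraries, and 0 in the 6 libraries of the higher correct-strand class, where the adjustment can hardly be passed and Cux1 turned to 0.49 with Bcl11b, −0.10 with Cux2, and 0.48 with Fezf2. The cause of these changes was not tested.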
